A study of Mus musculus with 2 samples.

Results

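The 10 genes described here encode the inducible transcription factors of the FOS family (Fos, Fosb, Fosl1 and Fosl2), the JUN family (Jun, Junb and Jund) and the EGR family (Egr1, Egr2 and Egr3). They were found by gene symbol among the 43346 annotated mouse genes in the deposited tables, and all 10 were present. The material was adipose tissue from under the skin of C57BL/6J mice, described by the labels as adult littermates of both sexes, pooled, aged 8 weeks, with no treatment or genotype given and health state unknown. It was profiled by polyA RNA sequencing with stranded paired reads of 76 nt from RNA over 200 nt. There were 2 libraries, labelled biological replicates 2 and 1, from separate tissue samples that share a donor record. The libraries form 1 group and no conditions can be compared, so the values describe how abundant each gene was and how far the libraries lay apart.

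FOS and JUN proteins carry a basic region and a leucine zipper and join as dimers, known as AP-1, which bind DNA. JUN proteins can pair among themselves, whereas FOS proteins need a partner. EGR proteins bind GC-rich DNA through zinc fingers. Most of these genes are immediate early genes: serum, growth factors, hormones or stress switch them on within minutes without new protein, and their mRNAs decay quickly, in part through AU-rich elements in the 3′ untranslated region. In adipose biology, Fosl2 is known as a regulator of leptin expression and Egr2, also called Krox20, as an early factor of adipocyte differentiation.

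The bases just upstream of 3 start sites are shown because they carry motifs through which stimuli are known to reach such genes. They are the 160 bases before the RefSeq start site on GRCm38.p6, 5′ to 3′ on the strand of the gene. Capitals mark matches on either strand to 7 patterns searched in the 250 upstream bases: the cAMP response element TGACGTCA, its core TGACG, the AP-1 site TGAGTCA, its variant TGACATCA, the EGR site GCGNGGGCG, the TATA box TATAAA and the CArG box, which is bound by serum response factor. Every TGACGTCA also holds the core TGACG.
Fos, chr12:85473730-85473889, plus strand: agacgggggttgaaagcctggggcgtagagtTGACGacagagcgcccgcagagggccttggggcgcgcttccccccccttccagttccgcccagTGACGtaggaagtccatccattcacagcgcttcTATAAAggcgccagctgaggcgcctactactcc
Jun, chr4:95052223-95052382, minus strand: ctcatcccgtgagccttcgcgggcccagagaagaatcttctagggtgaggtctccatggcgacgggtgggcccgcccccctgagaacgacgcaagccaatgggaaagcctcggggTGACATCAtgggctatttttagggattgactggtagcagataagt
Egr2, chr10:67537709-67537868, plus strand: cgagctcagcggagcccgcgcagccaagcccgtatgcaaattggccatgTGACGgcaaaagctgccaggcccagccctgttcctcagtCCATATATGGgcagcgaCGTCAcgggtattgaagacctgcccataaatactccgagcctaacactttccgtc
The promoter table matched 7 of the 10 genes, so Egr1, Egr3 and Fosl1 were not searched. Sites more than 250 bases upstream would also be missed. Fos held the core TGACG at 66 and 129 bases before the start and a TATA box at 33. Jun held TGACATCA at 45 bases before the start, and Egr2 held a CArG box at 72 bases before it, between TGACG cores at 111 and, on the other strand, 55. The core TGACG also matched in Fosb, at 60 bases before the start, and in Junb, at 106. Over the 250-base windows of all 27025 promoters with an entry, TGACG matched in 17.9%, TATAAA in 13.0%, TGACATCA in 3.02% and the CArG box in 1.40%. The full TGACGTCA, present in 1.62% of all promoters, and TGAGTCA, in 4.43%, matched none of the 7 windows. The EGR site matched in Fosb and Fosl2, against 4.65% of all promoters. The 160 bases before the RefSeq start overlap an annotated exon in each of these genes. For Fosl2 that start, at 32136472, lies inside the GENCODE M21 gene, which begins at 32135801. A match describes letters and not binding.

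A further set of sequences shows AU-rich stretches of the 3′ untranslated regions, because rapid decay is a known trait of these mRNAs and the genes differ in how much of the motif they carry. Each line gives the 30 bases with the most ATTTA pentamers, read on the strand of the gene from GENCODE M21 on GRCm38, with the pentamers in capitals.
Fos, chr12:85477100-85477129, plus strand: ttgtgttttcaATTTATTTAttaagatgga
Fosl2, chr5:32156864-32156893, plus strand: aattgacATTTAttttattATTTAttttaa
Jun, chr4:95049207-95049236, minus strand: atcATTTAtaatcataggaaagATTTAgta
Jund, chr8:70700358-70700387, plus strand: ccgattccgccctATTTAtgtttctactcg
In all, the 3′ untranslated region of Fos, 815 bases long, held 4 pentamers, Fosl2 held 8 in 4653 bases, Jun 4 in 1233, Egr2 3 in 1200, Junb 2 in 485 and Egr1 2 in 1188. Jund held 1 in 533, Fosb 1 in 2145 and Fosl1 1 in 638. The annotated region of Egr3 was 50 bases long and held none. Of 2043 genes with a mean TPM of at least 1 and a region within 25% of the length of that of Fos, 9.84% had as many pentamers as Fos. The same share was 20.4% for Jun, 43.2% for Fosl2 and 51.4% for Jund. The longer motif TTATTTATT was present once each in Fos and Fosl2, against 4.94% and 18.9% of genes with regions of like length.

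TPM, the deposited relative abundance per transcript length, allows genes to be compared with each other. Replicate 2 had 57500971 counts on annotated genes and replicate 1 had 53601218. The JUN family was the most abundant of the 3. Its summed level was 107 TPM in replicate 2 and 305 TPM in replicate 1, which was 66.0% and 80.3% of the summed TPM of the 10 genes. The FOS family summed to 30.5 TPM in replicate 2 and 47.2 in replicate 1 (18.8% and 12.4%), and the EGR family to 24.6 and 27.4 TPM (15.2% and 7.23%). JUN thus made up 73.2 ± 10.1% of the member TPM, FOS 15.6 ± 4.52% and EGR 11.2 ± 5.61% (SD, n = 2). The lowest JUN share lay above the highest FOS share. The FOS and EGR ranges over both libraries overlapped, though FOS was above EGR within each library.

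**Figure D1:**
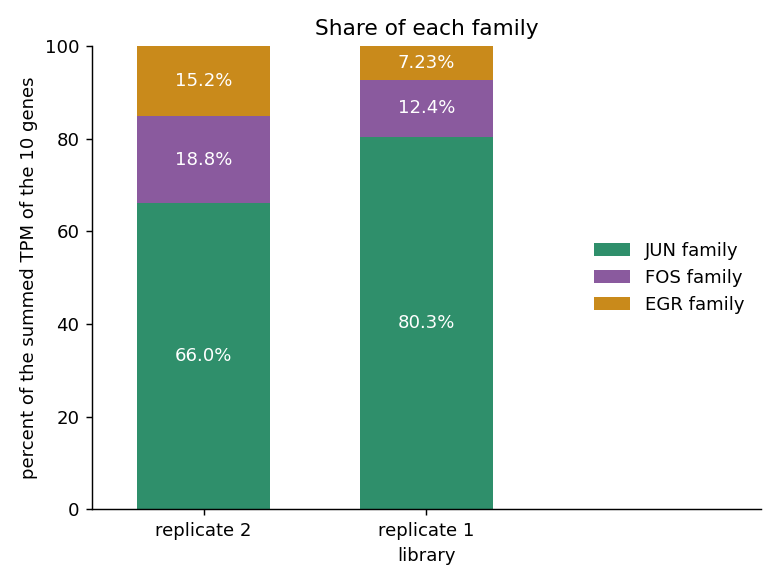
Stacked bars show the percent of the summed TPM of the 10 genes taken by the JUN, FOS and EGR families in replicate 2 (left) and replicate 1 (right). JUN genes took 66.0% and 80.3%.

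Jund (ENSMUSG00000071076.5; GRCm38 chromosome 8, 70698949 to 70700616, plus strand) was the highest of the 10 genes in both libraries. JunD is the JUN protein known for steady expression in resting cells. It had 6462 counts and 55.01 TPM in replicate 2, and 21283 counts and 212.46 TPM in replicate 1, a mean of 134 ± 111 TPM (SD, n = 2). It stood at the 89.6th percentile of all genes with a TPM above 0 in replicate 2 and at the 97.1st in replicate 1. The tables give Jund a transcript of 2878 nt, whereas its GENCODE M21 model has 1668 nt. RefSeq places its start at 70697739, and the span from there to the M21 end is 2878 bases. Where along this span the reads of Jund lie is not shown by the tables. Jund held 51.4% of JUN family TPM in replicate 2 and 69.7% in replicate 1.

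Jun (ENSMUSG00000052684.4; chromosome 4, 95049034 to 95052222, minus strand), the founding AP-1 partner, came next with 26.99 TPM in replicate 2 and 60.71 in replicate 1. Its counts were 3541 and 6792, and its mean was 43.9 ± 23.8 TPM (SD, n = 2). Junb (ENSMUSG00000052837.5; chromosome 8, 84974484 to 84978718, minus strand), which can dampen Jun activity, was the most even JUN gene, with 25.08 TPM in replicate 2 and 31.59 in replicate 1. The 1796 and 1931 counts behind these values give a mean of 28.3 ± 4.60 TPM. In replicate 2 Jun and Junb were close, and in replicate 1 Jun was clearly the higher. The counted transcripts of all 3 JUN genes have 1 exon in GENCODE M21, so none of their reads can be tied to spliced RNA.

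Fosl2 (ENSMUSG00000029135.9; chromosome 5, 32135801 to 32157842, plus strand), which encodes FRA2, was the leading FOS gene, with 16.64 TPM in replicate 2 and 38.55 in replicate 1 from 4142 and 8178 counts. It averaged 27.6 ± 15.5 TPM (SD, n = 2). Fos (ENSMUSG00000021250.9; chromosome 12, 85473890 to 85477273, plus strand), the classic inducible member, had 13.27 TPM in replicate 2 and 7.52 in replicate 1, from 886 and 491 counts, a mean of 10.4 ± 4.07 TPM. Fosl2 was the higher of the pair in both libraries, and the gap was narrower in replicate 2. There Fos and Fosl2 held 43.5% and 54.5% of FOS family TPM. In replicate 1 Fos held 15.9% of it and Fosl2 81.7%.

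The other FOS genes were below 1 TPM in both libraries, and Fosl1 was at the edge of detection. Fosb (ENSMUSG00000003545.2; chromosome 7, 19302696 to 19310051, minus strand), best known from neurons, had 70 counts and 0.45 TPM in replicate 2 and 121 counts and 0.91 TPM in replicate 1. Fosl1 (ENSMUSG00000024912.5; chromosome 19, 5447547 to 5455946, plus strand), which encodes FRA1, had 11 counts and 0.17 TPM in replicate 2 and 10 counts and 0.18 TPM in replicate 1. The interval that the deposited tables give for Fosl1, whose level is not stated in the headers, ran from 0.0884 to 0.287 TPM in replicate 2 and from 0.0898 to 0.312 in replicate 1. The tables hold 1 Fosb transcript, so the shorter splice form that encodes ΔFOSB could not be told from the full one.

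Egr1 (ENSMUSG00000038418.7; chromosome 18, 34859823 to 34864984, plus strand), a zinc finger factor induced by serum and growth factors, was the most even in TPM of the 7 genes that reached 1 TPM in each library. It had 18.46 TPM in replicate 2 and 17.96 in replicate 1, from 2385 and 2013 counts, a mean of 18.2 ± 0.354 TPM (SD, n = 2). Egr2 (ENSMUSG00000037868.11; chromosome 10, 67535475 to 67542188, plus strand) had 5.22 TPM in replicate 2 and 7.71 in replicate 1, from 373 and 400 counts. Egr3 (ENSMUSG00000033730.3; chromosome 14, 70077203 to 70082614, plus strand), studied mostly in muscle spindles, lymphocytes and neurons, had 0.93 TPM in replicate 2 and 1.77 in replicate 1, from 49 and 80 counts. Egr1 held 75.0% of EGR family TPM in replicate 2 and 65.5% in replicate 1.

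Both libraries reached 1 TPM for 7 of the 10 genes, the exceptions being Egr3, Fosb and Fosl1. By mean TPM the order was Jund, Jun, Junb, Fosl2, Egr1, Fos, Egr2, Egr3, Fosb and Fosl1. Taken over both libraries, the ranges overlapped between neighbours from Jund down to Egr1 and between Fos and Egr2, and did not overlap between the other neighbours. Within a library the order was clearer. Jund lay above Jun in both libraries with separate TPM intervals, and Jun lay above Junb in both, with intervals that overlapped in replicate 2. Junb and Fosl2, and Fosl2 and Egr1, changed places between the libraries with separate intervals in each. Fos and Egr2 changed places too, but their intervals overlapped in replicate 1 (6.92 to 8.47 and 6.88 to 9.40 TPM). Their order there is not settled. Gene counts of all 10 were whole and equal to the posterior mean count in both libraries at the 2 decimals printed, so at that precision no division of their reads with other genes was visible.

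**Figure D2:**
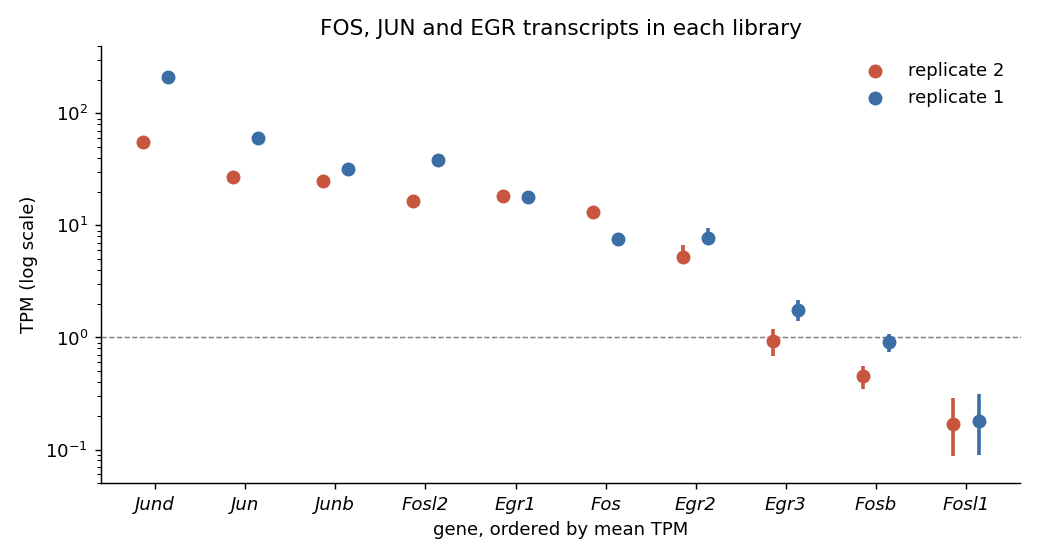
Points show TPM on a log scale for the 10 genes, ordered by mean, in replicate 2 (left of each pair) and replicate 1 (right), with the intervals of the deposited tables as vertical lines and a dashed line at 1 TPM. Jund leads both libraries at 55.01 and 212.46 TPM, and Fos and Egr1 are the only genes with the higher TPM in replicate 2.

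To compare the libraries, counts were scaled with TMM factors (edgeR), and the ratio of replicate 2 to replicate 1 was given an exact Clopper-Pearson 95% interval, which reflects counting error and nothing else. The call of over 2-fold apart needed the whole interval above 2 or below 0.5. Each side is 1 library, so no test is possible. Of the 10 genes, 2 were over 2-fold apart, Fos higher and Jund lower in replicate 2. Among the 17167 annotated genes whose mean scaled count reached 10, 24.3% were over 2-fold apart, with 9.96% higher and 14.3% lower in replicate 2. The members' count is thus near the background and is no result about the group. Their median log2 ratio was 0.01, beside 0.00 over all those genes.

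Fos had a ratio of 2.40 (2.15 to 2.69), with scaled counts of 1022 in replicate 2 and 425 in replicate 1. This call ends with other scalings: by total count the ratio was 1.68, and by the spike-in total 1.75. Jund was lower in replicate 2 at a ratio of 0.404 (0.393 to 0.416), with scaled counts of 7457 and 18443, and lay below 0.5 with all 4 scalings, at 0.283 by total count. In bulk tissue, fewer cells of a type and less RNA per cell cannot be told apart.

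Of the rest, Fosl2 (ratio 0.674, 0.650 to 0.700) and Jun (0.694, 0.666 to 0.723) had nearly the same ratio, each below 1 in every scaling. By total count Fosl2 passed the 2-fold bound, at 0.472, and Jun was at 0.486. Egr1 had a ratio of 1.58 (1.49 to 1.68), Junb 1.24 (1.16 to 1.32) and Egr2 1.24 (1.08 to 1.43). For Junb the direction flipped by total count, at 0.867 (0.813 to 0.925), and by the spike-in total, at 0.903 (0.846 to 0.963). Egr2 was at 0.869 (0.753 to 1.00) and 0.905 (0.784 to 1.04), with intervals that held 1. Egr1 stayed above 1 at 1.10 and 1.15. The TPM of Junb and Egr2 was likewise lower in replicate 2. For Fosb (0.770, 0.566 to 1.04), Egr3 (0.816, 0.560 to 1.18) and Fosl1 (1.46, 0.565 to 3.85) the TMM interval held 1. By total count the intervals of Fosb (0.539, 0.396 to 0.730) and Egr3 (0.571, 0.392 to 0.825) lay below 1, as they did by spike-ins, at 0.561 and 0.594, so for these genes the scaling decides whether a difference is seen. The interval of Fosl1 held 1 with all 4 scalings, and no difference was detectable at its depth.

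**Figure D3:**
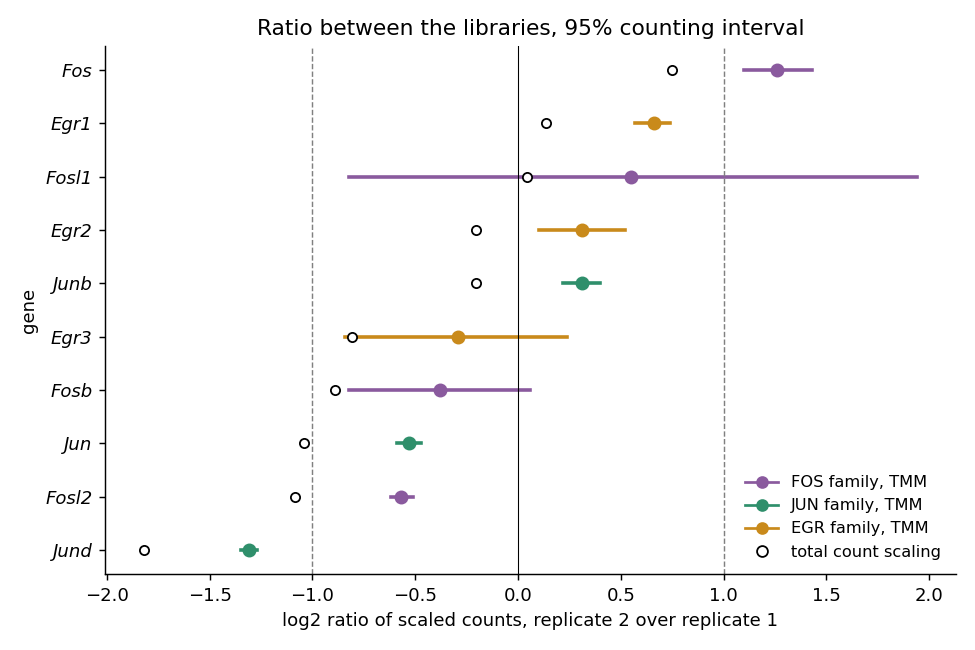
Filled points show the log2 ratio of TMM-scaled counts, replicate 2 over replicate 1, with 95% counting intervals, coloured by family, and open points show the ratio with total count scaling. Dashed lines mark 2-fold. Fos lies at 1.26 and Jund at -1.31, and total count scaling moves every point by -0.51.

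The proportion of each gene to Jund is free of library scaling. Per 1000 Jund counts there were 137 Fos counts in replicate 2 and 23.1 in replicate 1, a 5.94-fold higher proportion in replicate 2 (95% counting interval 5.30 to 6.67). Egr1 followed with 369 and 94.6 per 1000, 3.90-fold higher (3.65 to 4.17), then Fosl1 at 3.62-fold, with a wide interval (1.40 to 9.52) from 11 and 10 counts, Egr2 at 3.07-fold (2.65 to 3.56) and Junb at 3.06-fold (2.85 to 3.29). Jun and Fosl2 moved least against Jund, at 1.72-fold (1.63 to 1.80) and 1.67-fold (1.59 to 1.75). All 9 other genes had the higher proportion to Jund in replicate 2, with every interval above 1. Jund had the lowest TMM ratio of the 10 (0.404, with Fosl2 next at 0.674), so this direction follows from the choice of denominator. Since all share Jund as denominator, these are not 9 separate results, and they do not show a rise of the other genes. With TPM, which accounts for length, Fos per Jund was 0.241 in replicate 2 and 0.0354 in replicate 1.

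The genes of the highest GC content had the lowest median ratio of replicate 2 to replicate 1. The shorter GENCODE M21 transcript of Jund had a GC content of 67.1%, the highest of the 10, followed by Junb at 62.6% and Egr3 at 62.2%, while Fos had 51.9% and Egr2 51.4%. Over all genes in the comparison, the 83 with a GC content of 65% or more had a median log2 ratio of -1.04, and 43.4% of them were over 2-fold lower in replicate 2. The 706 genes between 60% and 65% had a median of -0.18, and the 4146 between 50% and 55% had -0.01. The part of base composition in the result for Jund was not tested. Junb, next in GC content, was at a log2 ratio of 0.31.

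Cell type markers differed between the libraries. White adipocyte markers summed to 46131 TPM in replicate 2 and 21469 in replicate 1, and 13 of 13 were past the bound on the higher side (10 by total count). All 12 glandular epithelium genes (16.1 TPM in replicate 2 and 1229 in replicate 1) and all 9 smooth muscle genes (686 and 6093 TPM) were over 2-fold lower in replicate 2, as were all 10 cell division genes (16.2 and 124 TPM) and 4 of the 6 neutrophil genes with enough counts. Endothelial genes were over 2-fold higher for 5 of 8 (1886 and 842 TPM), but for 1 by total count, and 0 of 8 macrophage genes were over 2-fold apart. Fibroblast genes were split, with 1 higher and 3 lower of 8, and nerve genes had 2 higher and 2 lower of 7. By total count fibroblast genes had 0 higher and 4 lower, nerve genes 1 higher and 2 lower, and neutrophil genes 5 lower. No listed marker of these cell types was at 0 counts in both libraries. The part of cell makeup in the ratios of Fos and Jund was not tested.

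Only Fos, Egr1 and Egr2 have several transcripts in the tables. For Fos, the full coding mRNA (ENSMUST00000021674.6), with 4 exons and 2108 nt, took 71.28% of the gene's TPM in replicate 2 and 87.94% in replicate 1, from 789 and 471 estimated counts. A noncoding transcript of 795 nt (ENSMUST00000136122.3) took 28.72% and 10.9%, from 96.9 and 17.9 counts. Of its 795 bases, 244 lie in the intron that separates the leading exons of the coding mRNA, at chromosome 12, 85474691 to 85474934, and the other 551 are shared with that mRNA. Both transcripts had more counts in replicate 2. How the model divided the shared reads cannot be checked from the tables.

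For Egr1, the 3036-nt coding transcript took 92.57% of TPM in replicate 2 and 89.04% in replicate 1. The longer one, which holds all of these 3036 bases and 1448 more, took 7.43% and 10.96%. For Egr2, the 2965-nt transcript took 45.34% and 21.85%, from 287 and 174 counts, and a 902-nt transcript took 54.66% and 39.41%, from 86.0 and 78.5 counts. Transcripts of 2665 and 773 nt were listed at 0 in replicate 2 and took 15.4% and 23.33% in replicate 1, from 109 and 37.8 counts. Of the 7 Egr2 transcripts, 3 were at 0 in both libraries. The TPM of Egr2 thus leans on short models with few counts.

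**Figure D4:**
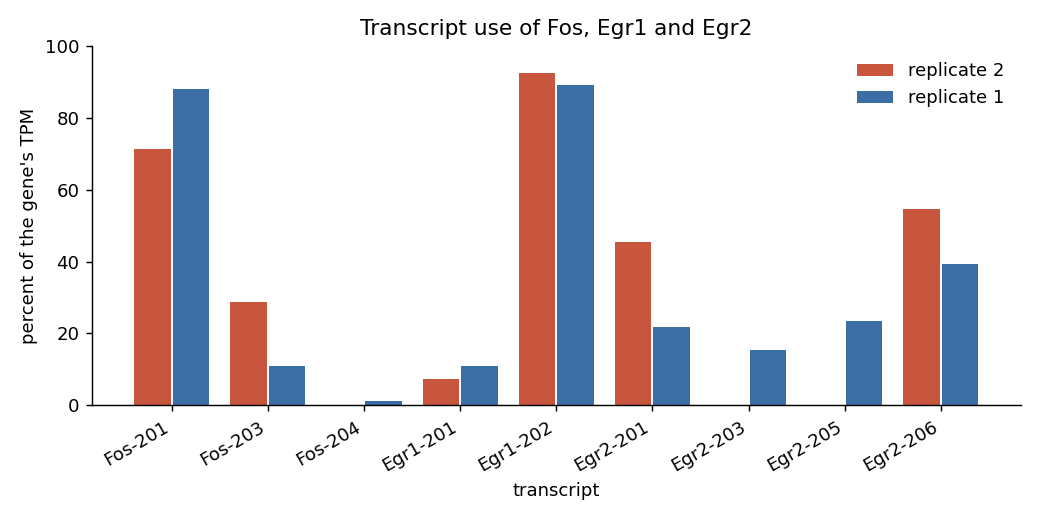
Bars show the percent of the gene's TPM assigned to each transcript of Fos, Egr1 and Egr2 in replicate 2 (left bar) and replicate 1 (right bar), leaving out transcripts at 0 in both. The noncoding 795-nt transcript of Fos, in the second pair of bars, took 28.72% in replicate 2 and 10.9% in replicate 1.

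In GENCODE M21, 4 of the genes overlap another gene, in each case on the opposite strand. Jund overlaps the antisense gene Gm11175 over 919 bases, which had 25 counts in replicate 2 and 75 in replicate 1. Jun overlaps Junos over 689 bases, with 34 and 57 counts. The gene body of Junb overlaps the peroxiredoxin gene Prdx2 over 351 bases, with 8733 and 8639 counts. This gene body, from 84974484 to 84978718, is longer than the counted Junb transcript, which is 1 exon of 1809 nt in GENCODE M21. Whether the 351 bases reach into that transcript was not determined. Fosl1 overlaps Ccdc85b over 2767 bases, with 223 and 518 counts. The libraries are stranded per the labels, but whether the counting used strand is not stated in the labels or table headers. These overlaps are of whole gene bodies, introns included.

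The other basic leucine zipper factors that can pair with FOS or JUN, or compete with them, were over 2-fold apart in 2 of the 17 cases with enough counts (11.8%, beside 24.3% of all genes). Of 19 listed, 17 reached 1 TPM in replicate 2 and in replicate 1, and the summed level was 667 TPM in replicate 2 and 748 in replicate 1, above that of the 10 genes themselves (162 and 379). Nfe2l1, a regulator of proteasome genes, had 285.43 TPM in replicate 2 and 213.63 in replicate 1, and was 2.28-fold higher in replicate 2 (2.24 to 2.32), a call that ends by total count (1.59) and by spike-ins (1.66). Atf4, of the integrated stress response, had 112.33 and 133 TPM, Atf7 84.76 and 149.51, and Nfe2l2, of the antioxidant response, 42.46 and 62.55, all within the 2-fold bound. Batf, an AP-1 factor of lymphocytes, was lower in replicate 2 at a ratio of 0.275 (0.195 to 0.379) from 46 and 223 counts. Crem, a cAMP-responsive factor, had a ratio of 2.01 with an interval from 1.74 to 2.32. The median log2 ratio of the 17 was 0.18 with TMM and -0.33 by total count, beside 0.00 and -0.53 over all genes.

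Among 28 other immediate early genes, 25 reached 1 TPM in replicate 2 and in replicate 1. Of the 27 with enough counts, 5 were over 2-fold higher in replicate 2 and 3 were lower (29.6%, beside 24.3% of all genes), with a median log2 ratio of 0.16. By total count 3 were higher and 7 lower (37.0%, beside 27.8% of all genes). The median was then -0.36, beside -0.53 over all genes. Rhob, which encodes a small GTPase, was the most abundant, with 319.68 TPM in replicate 2 and 352.35 in replicate 1. The phosphatase gene Dusp1, a brake on MAP kinases, had 137.6 and 46.14 TPM and was 4.38-fold higher (4.20 to 4.56). Zfp36, which encodes the ARE-binding decay factor tristetraprolin, had 89.04 and 43.28 TPM and was 3.21-fold higher (3.06 to 3.36). The clock gene Per1 was 3.88-fold higher (3.70 to 4.06). Myc was lower in replicate 2, with 11.58 TPM against 81.45 in replicate 1 and a ratio of 0.215 (0.198 to 0.232). The others past the bound, named after their values were seen, were Klf6 (2.15) and Ccn1 (2.53) on the higher side and Ier5 (0.393) and Dusp2 (0.263) on the lower. Klf6 and Ccn1 lay within the bound by total count and by spike-ins (1.57 and 1.84 by spike-ins), while Dusp1, Per1 and Zfp36 stayed above it with both (3.19, 2.82 and 2.34 by spike-ins).

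**Figure D5:**
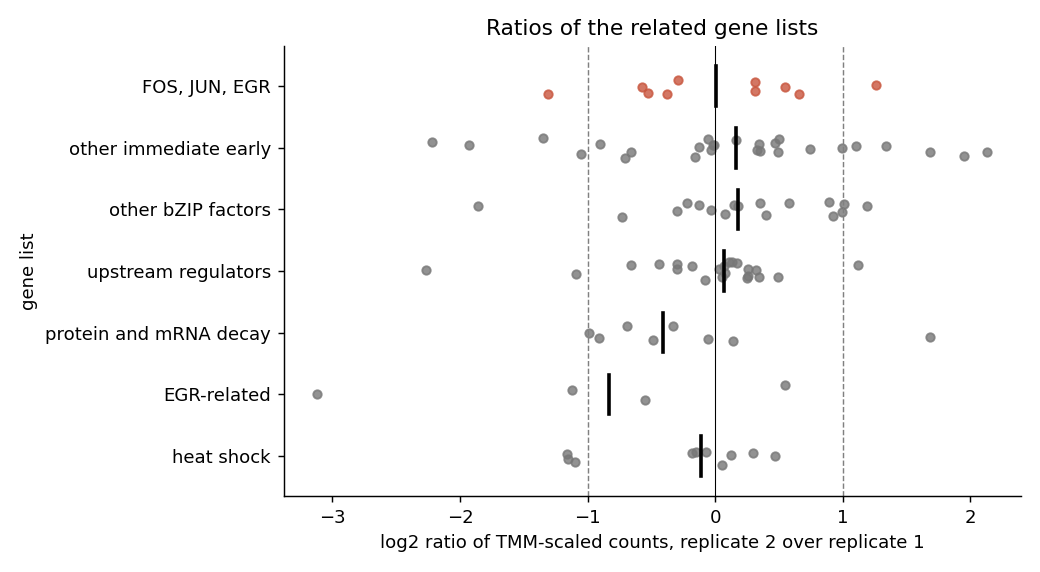
Each point is the log2 ratio of TMM-scaled counts, replicate 2 over replicate 1, of a gene whose mean scaled count reached 10, in 7 lists, with the list median as a black bar and dashed lines at 2-fold. The 10 genes spread from -1.31 to 1.26 around a median of 0.01, and the other immediate early genes from -2.22 to 2.13.

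Of 22 upstream regulators, 21 reached 1 TPM in each library, and 3 were over 2-fold apart (13.6%, beside 24.3% of all genes). The other 19 were within the bound (median log2 ratio 0.07). By total count and by spike-ins 0 were higher and 3 lower (13.6% with each, beside 27.8% and 27.0% of all genes). The medians were -0.44 and -0.39, beside -0.53 and -0.47 over all genes. The ERK gene Mapk3 had 215.66 TPM in replicate 2 and 241.93 in replicate 1, Map2k2 97.59 and 149.84, and the p38 gene Mapk14 63.2 and 86.53. Srf, which encodes the factor that binds the CArG box, was over 2-fold lower in replicate 2, with 30.04 and 99.59 TPM and a ratio of 0.471 (0.456 to 0.487). Rps6ka3, an ERK-activated kinase, was higher at 2.18 (2.09 to 2.27) but at 1.53 by total count, and the JNK gene Mapk10, named after its values were seen, was lower at 0.207 from 9 and 58 counts. Rps6ka1 was at 0.631 (0.592 to 0.673) with TMM, and passed the bound by total count (0.442) and by spike-ins (0.460).

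The 5 genes related to EGR function summed to 50.5 TPM in replicate 2 and 230 TPM in replicate 1. The corepressor genes Nab1 and Nab2, whose proteins bind EGR factors, had 13.57 and 11.31 TPM in replicate 2 against 13.76 and 40.2 in replicate 1. Nab2 was over 2-fold lower in replicate 2, at 0.460 (0.430 to 0.492), and Nab1 was at 1.46. Wt1, a related zinc finger factor known in mesothelium and the urogenital tract, had 10.98 TPM in replicate 2 and 140.26 in replicate 1, a ratio of 0.115 (0.106 to 0.124). Sp1, which binds GC-rich DNA, had 14.66 and 36.17 TPM (ratio 0.684) and passed the bound by total count. Egr4 had 1 count in replicate 2 and 3 in replicate 1. In the list for decay of JUN proteins and of AU-rich mRNAs, 8 of 8 genes reached 1 TPM in each library. Zfp36 was the only gene past the bound with TMM (12.5%, beside 24.3% of all genes). By total count Zfp36l1, Zfp36l2 and Hnrnpd were past it too, on the lower side. Zfp36l1 had 82.9 and 252.27 TPM (ratio 0.504, 0.491 to 0.518), Zfp36l2 44.72 and 112.51, Khsrp 26.48 and 58.23, and Hnrnpd was at 0.532 (0.464 to 0.608).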

How the data were processed

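The authors aligned reads to mm10 transcripts of GENCODE M4, per the notes that came with the deposited tables, and made a table per library. No header or label names the counting program. The deposited tables hold an expected count, TPM and FPKM per gene and transcript, the percent of a gene's TPM per transcript, and bounds of a TPM interval (treated as a signal). Expected counts were rounded and scaled with edgeR 4.0.16 TMM factors in R 4.3.3 (0.837 in replicate 2, 1.20 in replicate 1) over the 43346 annotated genes, without tRNA features and spike-ins. Size factors of DESeq2 1.42.0, scaling by total count or by spike-ins, FPKM, posterior means and other filters and pseudocounts were alternatives. Intervals were tested on simulated data and cover counting error only. Symbols matched 42462 of the identifiers, and positions are from GENCODE M21 on GRCm38. The mm9 junction and contig tables were not used. The members and lists were chosen with earlier results of these data known. Named were all 10 members, the 4 highest genes of each related list and its 3 largest ratios at a mean scaled count of at least 100. A gene that this rule names among the upstream regulators is not reported here. No p-values were computed.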

Additional observations from a re-analysis of the deposited data

How the results depend on the processing

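The FOS, JUN and EGR genes kept their count of 1 higher and 1 lower with DESeq2 size factors, posterior mean counts, a minimum mean scaled count of 100 and no filter. Total count scaling gave 0 higher and 2 lower, Fosl2 and Jund, and spike-in scaling gave 0 higher and 1 lower, Jund. Over all genes, 27.8% were over 2-fold apart by total count and 27.0% by spike-ins, beside 24.3% with TMM. Fewer of all genes were higher, and more were lower, by total count and by spike-ins than with TMM. These scalings move every log2 ratio by -0.51 and -0.46, which is the cause of the change, and the median over all genes moved with them to -0.53 and -0.47. The members' median log2 ratio of 0.01 became -0.51 by total count, -0.45 by spike-ins, 0.31 over the 7 genes whose mean scaled count reached 100 (fewer genes), and -0.71 and -0.44 on TPM with pseudocounts of 0.1 and 1. The FOS share of 15.6% of TPM was 23.6% of expected counts, where long transcripts weigh more, and JUN and EGR shares stayed within 1 SD. Without replicate 1 or replicate 2 the JUN share ranged from 66.0 to 80.3%. The count of 7 genes at 1 TPM was 8 at 0.5 and 7 at 5, and the order of levels was the same with posterior means for all 10 genes. For the related lists, values with the same scalings, chosen after seeing the data, are given for some counts and genes and not for all. No paired analysis was possible because there is a single group. With 11 and 10 counts for Fosl1, and 49 and 80 for Egr3, depth limits these genes.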

Other observations

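Heat shock genes, another group that responds to stress, encode chaperones. All 10 listed reached 1 TPM in each library, and 2 were over 2-fold apart (20.0%, beside 24.3% of all genes). Hspa8 had 1818.92 TPM in replicate 2 and 3421.51 in replicate 1, Hspb1 231.36 and 292.45, Hsp90aa1 67.52 and 134.48, and Hspd1 32.58 and 38.32, each within the 2-fold bound. The inducible pair Hspa1b (ratio 0.448, 95% counting interval 0.420 to 0.477) and Hspa1a (0.450, 0.414 to 0.488), near-identical copies whose reads the program divides, were over 2-fold lower in replicate 2. Hsph1 was at 0.466 (0.428 to 0.506) with TMM, and passed the bound by total count (0.326) and by spike-ins (0.339). With each of those scalings 0 genes of the list were higher and 3 lower. The median log2 ratio of the list was -0.11 with TMM, -0.62 by total count and -0.57 by spike-ins.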
